A study of Mus musculus with 6 samples.

Results

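Pi16, Dpt, Spon2, Clec3b and Gsn are 5 genes that mark universal fibroblasts, and they were followed here through CD34- and CD34+ cancer-associated fibroblasts (CAFs) of mouse mammary tumors. They were chosen because the 3 markers Dpt, Spon2 and Clec3b, together with Pi16 and Gsn, had lower values in CD34- than in CD34+ CAFs of these same libraries. The lower level in CD34- CAFs is therefore given below as a description of the choice, without a test. They are 5 of the 27179 genes in the count table, and all 5 were among the 14855 genes that passed a filter on low counts.

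RNA was sequenced from 6 libraries, a CD34- and a CD34+ CAF library from each of 3 tumors. The tumors grew in female mice that carried the MMTV-Wnt1 transgene, in which a mammary tumor virus promoter drives Wnt1 in the mammary epithelium, on the FVB/NJ background. These mice were crossed to C57BL/6 mice with 1 copy of a Pdgfra knock-in reporter that places a GFP-tagged histone (H2B-GFP) in the nuclei of Pdgfra-expressing cells. Freshly sorted GFP+ cells were split by CD34, a surface sialomucin found on many tissue fibroblasts, and frozen without culture. Both groups carried the reporter and the transgene and no treatment is named for either. The ages of these mice were not given in the sources used here. Libraries are called negative or positive by their CD34 sort and numbered by their tumor, so that negative library 1 and positive library 1 came from the same tumor.

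Universal fibroblasts are fibroblasts that are found in most tissues, and they comprise an adventitial type, marked by Pi16 and Dpp4 and placed around larger vessels and in fascia, and a parenchymal type, marked by Col15a1 and spread through the tissue. Dpt is expressed in both and has been used to trace them. They are known as matrix-producing cells from which more specialized fibroblasts can arise after injury or in tumors. The 5 genes have separate roles. Pi16 encodes peptidase inhibitor 16, a membrane-anchored or secreted protein of the CAP superfamily. Dpt encodes dermatopontin, a small matrix protein that binds decorin and promotes collagen fibril assembly. Spon2 encodes the secreted matrix protein mindin of the spondin family. Clec3b encodes tetranectin, a C-type lectin that binds plasminogen, and Gsn encodes gelsolin, which severs and caps actin filaments and exists in an intracellular and a secreted form.

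The libraries held between 16238059 and 86609267 counts, and 14314 to 19220 genes had at least 1 count. Negative library 3 had the fewest detected genes and stood apart from the other libraries, with Pearson correlations of 0.837 to 0.883 across genes against each of them. The sort was visible in its own gene. Cd34 was at 79.2, 42.0 and 102 CPM (counts scaled to the library size) in negative libraries 1, 2 and 3 and at 678, 563 and 1605 CPM in positive libraries 1, 2 and 3. Pdgfra, whose locus drives the reporter, was at 302 to 468 CPM in CD34- CAFs and at 336 to 506 CPM in CD34+ CAFs, so the groups overlapped. The summed level of 5 fibroblast markers was 24064 to 37046 CPM in CD34- and 25187 to 33415 CPM in CD34+ CAFs. Among markers of other cells, 5 epithelial genes summed to 48.2 to 131 CPM in CD34- and 17.0 to 127 CPM in CD34+ CAFs, and 2 pericyte genes summed to 41.7 to 46.7 CPM in CD34- and 4.41 to 17.5 CPM in CD34+ CAFs. Markers of 8 further cell types summed to at most 22.7 CPM in every library, and Myf5 (muscle), Lrrn4 (mesothelium) and Cidec (fat) had no count in any. The summed levels of the muscle and keratinocyte lists, like those of the pericyte and Schwann lists, did not overlap between the groups. Muscle was at 2.80 to 13.7 CPM in CD34- against at most 1.85 CPM, and keratinocyte at 1.08 to 3.62 CPM against 7.01 to 11.3 CPM. Schwann was at 13.9 to 22.7 CPM against at most 12.01 CPM. Not all genes followed their sum. Des carried the muscle sum in CD34- CAFs (2.68 to 13.5 CPM), while Acta1 was highest in positive library 1 (1.11 CPM). Mbp of the Schwann list overlapped, and 0 Schwann genes were called with the tumor as a block. Of all genes tested, 10.0% had every CD34- library below every CD34+ library and 10.4% the reverse. The part of these other cells in the results below was not tested.

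Dpt, the marker shared by both universal types, lies on chromosome 1 from 164796663 to 164824274 on the plus strand of GRCm38.p6, RefSeq gene 56429, with a counted length of 1636 bases. RefSeq also places the long noncoding gene Gm32569 over it, and no separate count of that gene was analysed here. Promoter windows, 250 bases before to 50 bases after an annotated start, were found in the RefSeq table of GRCm38.p6 for 3 of the 5 genes. They are shown for Dpt (chr1:164796413-164796712), Pi16 (chr17:29318632-29318931) and the first of 3 Gsn starts (chr2:35256109-35256408), the genes with an entry, to put their starts beside their levels. Capitals mark matches, on either strand, to the searched motifs TATAAA (the TATA box), CCAAT (known as a site of NF-Y), GGGCGG (the GC box of Sp1), TGANTCA (a motif of AP-1), GGAATG (a motif of TEAD factors) and CTTTGA (a motif of TCF and LEF factors).
Dpt: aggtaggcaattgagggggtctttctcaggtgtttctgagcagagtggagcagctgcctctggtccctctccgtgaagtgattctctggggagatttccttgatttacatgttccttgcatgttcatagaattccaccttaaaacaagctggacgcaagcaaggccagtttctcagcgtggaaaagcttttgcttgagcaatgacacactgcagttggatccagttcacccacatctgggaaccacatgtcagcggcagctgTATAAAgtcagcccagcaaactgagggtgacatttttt
Pi16: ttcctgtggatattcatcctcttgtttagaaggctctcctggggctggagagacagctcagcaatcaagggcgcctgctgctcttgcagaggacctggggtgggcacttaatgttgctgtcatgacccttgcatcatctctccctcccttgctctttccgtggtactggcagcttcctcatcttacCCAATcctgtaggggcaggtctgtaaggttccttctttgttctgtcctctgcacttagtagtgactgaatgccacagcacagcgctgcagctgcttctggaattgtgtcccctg
Gsn: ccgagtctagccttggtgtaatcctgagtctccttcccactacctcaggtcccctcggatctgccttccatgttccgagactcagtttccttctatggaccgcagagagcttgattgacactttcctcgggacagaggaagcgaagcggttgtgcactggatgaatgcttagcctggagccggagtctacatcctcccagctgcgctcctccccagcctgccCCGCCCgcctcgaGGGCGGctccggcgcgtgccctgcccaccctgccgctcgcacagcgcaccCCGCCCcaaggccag

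No searched motif occurred in more than 1 of these 3 windows. Gsn windows 2 and 3, which are not shown, held CCAAT, as did the Pi16 window. The Dpt window held 1 TATAAA, 12 bases after the annotated start, a motif present in 13.6% of all 32851 windows of the table. The Pi16 window held 1 CCAAT, 64 bases before the start that this window uses, and 37.4% of all windows hold this motif. That start lies downstream of the RefSeq gene start of Pi16 at 29318796, and the CCAAT lies between them. The Dpt window and the first Gsn window use the RefSeq gene start. The first Gsn window held GGGCGG or its complement 3 times, at 28 and 15 bases before and 35 bases after the start, and 35.7% of all windows hold it. These matches describe the letters and not binding by a factor.

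Dpt had the most even difference between the sorts of the 5 genes. It was at 316, 256 and 471 CPM in negative libraries 1, 2 and 3 and at 1638, 1519 and 2704 CPM in positive libraries 1, 2 and 3. Every CD34+ library was above every CD34- library, and the lowest positive library was 3.22-fold above the highest negative library. The means were 348 ± 111 CPM in CD34- and 1953 ± 653 CPM in CD34+ CAFs (SD, n = 3 each), a 5.62-fold ratio of means. The limma-voom log2 fold change of CD34- against CD34+ was -2.49 ± 0.30 (SE), and 2.35% of all genes tested had a log2 fold change as low or lower. Within the tumors the log2 ratio was -2.37, -2.57 and -2.52 in tumors 1, 2 and 3. These 3 ratios had an SD of 0.10, against a median SD of 0.27 over 109 genes of similar level, of which 13.8% had a smaller SD. In tumor 3 the level was highest on both sides of the sort, and the ratio was close to that of the other tumors. The other members varied more than most genes of their level. For Pi16, Spon2, Clec3b and Gsn, 87.7%, 90.9%, 97.9% and 77.5% of genes of similar level had a smaller SD.

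**Figure D1:**
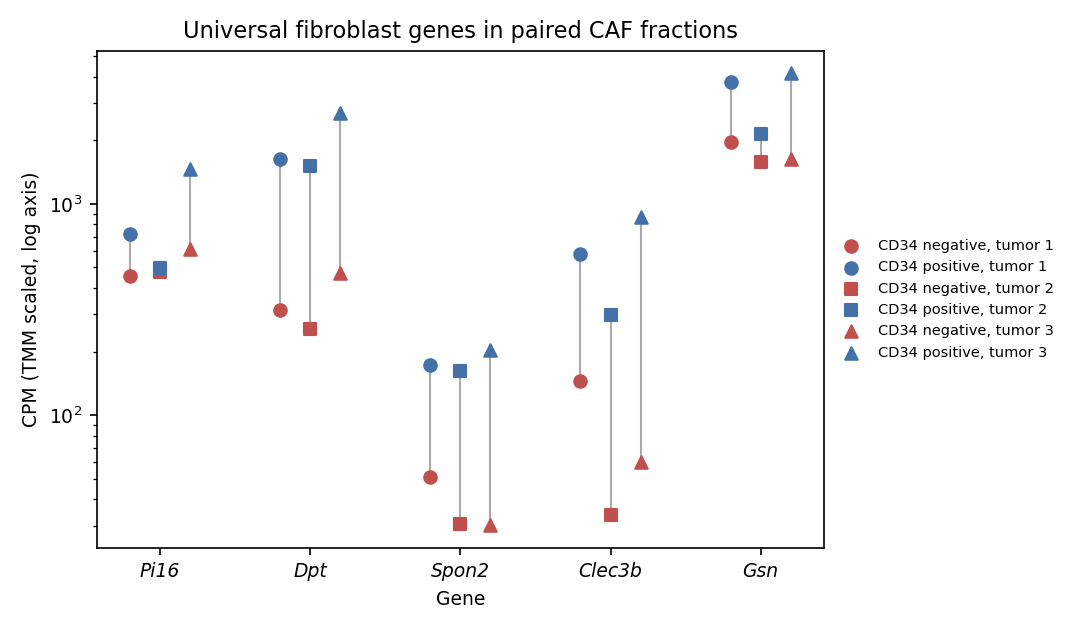
CPM of the 5 genes in each library, on a log axis, with CD34- and CD34+ libraries set apart and numbered by tumor. The groups overlap for Pi16, whose positive library 2 (498 CPM) lies below negative library 3 (612 CPM), and they do not overlap for Dpt, Spon2, Clec3b or Gsn.

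Pi16, the marker of the adventitial type, had groups that overlapped. The gene lies on chromosome 17 from 29318796 to 29328903 on the plus strand, RefSeq gene 74116, with a counted length of 2245 bases, and the long noncoding gene Gm46603 overlaps it. It was at 458, 476 and 612 CPM in negative libraries 1, 2 and 3 and at 722, 498 and 1462 CPM in positive libraries 1, 2 and 3. Positive library 3 was high, positive library 2 lay within the range of the negative libraries, and the ranges ran into each other. The means were 515 ± 84.0 CPM in CD34- and 894 ± 505 CPM in CD34+ CAFs (SD, n = 3 each), so the difference of the means was smaller than the SD of the CD34+ group. The log2 fold change was -0.69 ± 0.36 (SE), and 16.5% of all genes had one as low or lower. The ratio within tumors was -0.66, -0.06 and -1.26 on the log2 scale in tumors 1, 2 and 3. In tumor 2 the CD34- and CD34+ CAFs therefore had nearly the same Pi16 level. Without positive library 3 the log2 fold change was -0.25, and without both libraries of tumor 3 it was -0.41. In the other direction, it was -0.99 without positive library 2 and -0.93 without both libraries of tumor 2.

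Spon2, the mindin gene, was the least abundant of the 5 and had the smallest relative spread in CD34+ CAFs. It lies on chromosome 5 from 33213518 to 33218254 on the minus strand, RefSeq gene 100689, with a counted length of 2237 bases and no overlapping RefSeq gene. It was at 50.8, 30.6 and 30.1 CPM in negative libraries 1, 2 and 3 and at 174, 161 and 203 CPM in positive libraries 1, 2 and 3. The positive libraries lay close together, and the groups were 3.18-fold apart at their nearest libraries. The means were 37.1 ± 11.8 and 179 ± 21.6 CPM (SD, n = 3 each) in CD34- and CD34+ CAFs. The log2 fold change was -2.30 ± 0.24 (SE), and 2.96% of all genes had one as low or lower. The ratios of -1.77, -2.40 and -2.75 in tumors 1, 2 and 3 varied more than those of Dpt, with an SD of 0.50.

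Clec3b, the tetranectin gene, had the lowest log2 fold change of the 5 and also the widest spread. It lies on chromosome 9 from 123150946 to 123157432 on the plus strand, RefSeq gene 21922, with a counted length of 992 bases and no overlapping RefSeq gene. It was at 144, 33.5 and 59.7 CPM in negative libraries 1, 2 and 3 and at 577, 297 and 870 CPM in positive libraries 1, 2 and 3. Negative library 1 stood above the other CD34- libraries and positive library 2 below the other CD34+ libraries, but the groups did not overlap. The means were 79.2 ± 58.0 CPM in CD34- and 582 ± 286 CPM in CD34+ CAFs (SD, n = 3 each). The log2 fold change was -3.05 ± 0.55 (SE), and 1.35% of all genes had one as low or lower. Within tumors the level in CD34+ CAFs was 3.99-fold, 8.87-fold and 14.6-fold that in CD34- CAFs for tumors 1, 2 and 3. This spread (SD 0.94 of the log2 ratios) was the largest of the 5 genes.

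Gsn, the actin-severing gelsolin, was the most abundant of the 5 in CPM in every library. It lies on chromosome 2 from 35256359 to 35307902 on the plus strand, RefSeq gene 227753, with a counted length of 2938 bases, and the long noncoding gene Gm39795 overlaps it. It was at 1969, 1579 and 1629 CPM in negative libraries 1, 2 and 3 and at 3775, 2146 and 4148 CPM in positive libraries 1, 2 and 3. The groups did not overlap, although positive library 2 was only 1.09-fold above negative library 1. The means were 1726 ± 212 CPM in CD34- and 3357 ± 1064 CPM in CD34+ CAFs (SD, n = 3 each). The log2 fold change was -0.95 ± 0.27 (SE), and 12.2% of all genes had one as low or lower. The ratios were -0.94, -0.44 and -1.35 in tumors 1, 2 and 3. Counts per gene do not separate the intracellular from the secreted form.

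**Figure D2:**
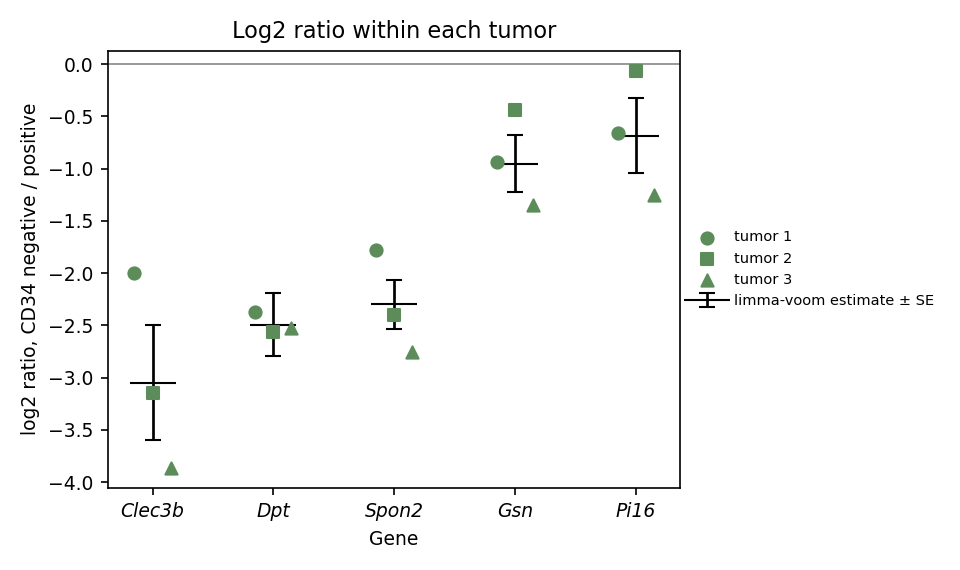
Log2 ratio of CD34- to CD34+ CAFs for each of the 5 genes in each tumor, with the fitted log2 fold change ± SE. The Dpt points lie within 0.19 of each other, the Pi16 points spread over 1.19 and the Clec3b points over 1.87.

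In the order of these differences, Pi16 had the smallest and Gsn the next smallest in each of the 3 tumors. Dpt had the largest in tumor 1, and Clec3b in tumors 2 and 3. All 5 genes were lower in CD34- CAFs in 3 of 3 tumors, as were 23.4% of all genes tested. For 4 of the 5, every CD34- library was below every CD34+ library, against 10.0% of all genes. At an adjusted p under 0.05 in limma-voom, 2 of the 5 (Dpt and Spon2) were called lower without a term for the tumor, against 0.101% of all genes, and 4 of the 5 (all but Pi16) with the tumor as a block, against 4.25%. The genes were chosen for this contrast, so nothing is read from these counts. In bulk RNA, fewer cells of a type and less RNA per cell cannot be told apart.

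In CD34+ CAFs the libraries kept a common order over the 5 genes. Positive library 3 was the highest and positive library 2 the lowest of the CD34+ libraries for each of the 5 genes. The share of all genes with this order was not counted, so it is not read as particular to these genes. Cd34 itself had the same order, with 1605 CPM in positive library 3 and 563 CPM in positive library 2. Positive library 2 was also the deepest library, and epithelial markers summed to 127, 74.4 and 17.0 CPM in positive libraries 1, 2 and 3. The part of depth or of epithelial RNA in this order was not tested. In CD34- CAFs the order differed between genes. Negative library 1 was highest for Spon2, Clec3b and Gsn, and negative library 3 for Pi16 and Dpt. Together the 5 genes took 0.276%, 0.239% and 0.288% of the counts in negative libraries 1, 2 and 3 and 0.685%, 0.456% and 0.978% in positive libraries 1, 2 and 3.

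Levels can be compared between genes only per length, and this was done in RPKM, the count scaled to the library size and to the gene's length. In CD34+ CAFs, Dpt (1194 ± 399 RPKM) and Gsn (1142 ± 362 RPKM) were at the top (SD, n = 3). Clec3b followed at 586 ± 289 RPKM, then Pi16 at 398 ± 225 RPKM and Spon2 at 80.2 ± 9.64 RPKM. The means of Dpt and Gsn differed by less than their SD between libraries, as did those of Clec3b and Pi16. Within libraries, the Pi16 to Clec3b ratio was 0.553, 0.739 and 0.742 in positive libraries 1, 2 and 3. Clec3b was thus above Pi16 in each CD34+ library, whereas Dpt was below Gsn in positive library 1 and above it in positive libraries 2 and 3. In CD34- CAFs the order was Gsn (587 ± 72.2 RPKM), Pi16 (230 ± 37.4 RPKM), Dpt (213 ± 67.8 RPKM), Clec3b (79.9 ± 58.5 RPKM) and Spon2 (16.6 ± 5.27 RPKM). Here Pi16 and Dpt differed by less than their spread. Dpt ranked 51, 53 and 20 among the 14855 genes in RPKM in positive libraries 1, 2 and 3, and 316, 414 and 188 in negative libraries 1, 2 and 3.

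**Figure D3:**
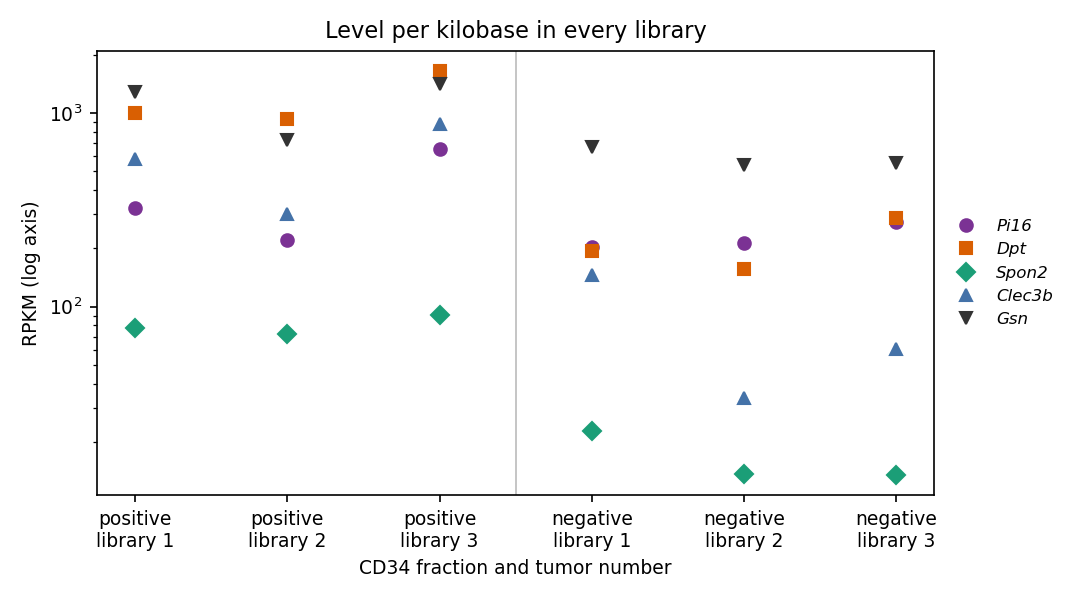
RPKM of the 5 genes in each library on a log axis. In negative libraries Pi16 and Dpt lie close together, whereas in positive libraries Dpt lies above Pi16 and near Gsn.

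The ratio of Pi16 to Dpt differed between the sorts. The Pi16 to Dpt ratio in RPKM was 1.06, 1.36 and 0.946 in negative libraries 1, 2 and 3 and 0.321, 0.239 and 0.394 in positive libraries 1, 2 and 3. The 2 groups of ratios did not overlap. Both Pi16 and Dpt had been chosen on this contrast, so the ratio restates their differences and is a description. The Dpt to Gsn ratio was 0.288, 0.291 and 0.519 in negative libraries 1, 2 and 3 and 0.779, 1.27 and 1.17 in positive libraries 1, 2 and 3. Other pairs overlapped between the sorts. The Pi16 to Gsn ratio was 0.304, 0.395 and 0.491 in negative libraries 1, 2 and 3. In positive libraries 1, 2 and 3 it was 0.250, 0.303 and 0.461. The ratios of Dpt to Spon2, Dpt to Clec3b and Spon2 to Clec3b overlapped as well. The share of all gene pairs without overlap was not counted.

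Across the 6 libraries, Pearson correlations of log2 CPM were highest between Spon2 and Clec3b (0.959), Dpt and Spon2 (0.943) and Clec3b and Gsn (0.937), and lowest between Pi16 and Spon2 (0.592). These libraries share 3 tumors and the sort on which the genes were chosen, so the values are a description. With each group's mean taken out, the order differed. Spon2 and Clec3b (0.887) remained the highest pair, Pi16 and Dpt (0.839) came next, and Dpt and Spon2 (0.126) were the lowest. Among 8939 other genes with a symbol and a mean log2 CPM of at least 3, those most like Dpt were Ust (0.996), Cd34 (0.995) and Thbd (0.994). Among the genes most like Pi16 were Abi1 (0.983) and Uspl1 (0.980). Spon2 was most like Gm6158 (0.995), Tmem67 (0.992) and Ocrl (0.990), Clec3b like Tmtc2 (0.992), Abca6 (0.989) and Pcbp2 (0.985), and Gsn like Stx16 (0.998), Chd9 (0.997) and Scara5 (0.987). A correlation takes no account of size, and the log2 fold changes of these genes ran from -3.63 for Cd34 to -0.12 for Uspl1.

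The other genes known for adventitial universal fibroblasts were taken as a list of 22, all of which were tested. The list was written with results of these libraries known, so its direction is not independent evidence, and it includes Cd34, on which the cells were sorted. All 22 had negative log2 fold changes, with a median of -2.20 against -0.03 over all genes tested. Without the tumor term, 4 passed in limma-voom (Dpp4, Cd34, Ackr3 and Tnxb), all lower in CD34- CAFs, against 0.101% of all genes called lower. That count varied with the libraries kept. It was 0 without negative library 3, positive library 2, tumor 2 or tumor 3, where 0 of all genes were called too. Without tumor 1 it was 11, where 86 of all genes were called. The cause of these moves was not tested. With the tumor as a block 18 passed, all lower, against 4.25% of all genes, and 17 or 18 passed when any 1 tumor was left out. Dpp4, a dipeptidyl peptidase on the surface of adventitial fibroblasts, was at 26.3, 37.8 and 34.9 CPM in negative libraries 1, 2 and 3 and at 218, 262 and 396 CPM in positive libraries 1, 2 and 3. Its log2 fold change was -3.12 ± 0.16 (SE) with the block (limma-voom, adjusted p = 3.61e-05). The secreted semaphorin Sema3c had -3.05 ± 0.19 with the block (limma-voom, adjusted p = 7.84e-05).

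Efhd1, a mitochondrial calcium-binding protein, was at most 1.24 CPM in CD34- CAFs and 32.4 to 137 CPM in CD34+ CAFs (limma-voom with the block, adjusted p = 0.00674). In negative library 3 it was at 0.0825 CPM, where 3 counts stand for 0.0850 CPM. Its log2 ratio in tumor 3 (-10.5, against -4.80 and -4.99 in tumors 1 and 2) rests on that value. Limch1 was at 0.523 to 1.39 CPM in CD34- and 8.38 to 32.0 CPM in CD34+ CAFs (limma-voom with the block, adjusted p = 0.0121). The 4 list genes that did not pass with the block were Mfap5, Fbn1, Igfbp6 and Dact2, named after their values were seen. Mfap5 and Fbn1 encode microfibril proteins. Mfap5 was at 1179 ± 184 CPM in CD34- and 1264 ± 108 CPM in CD34+ CAFs, and Fbn1 at 5245 ± 642 and 6489 ± 1824 CPM (SD, n = 3 each). Igfbp6, which binds insulin-like growth factors, was at 274 ± 95.1 and 313 ± 100.3 CPM in CD34- and CD34+ CAFs. As for Pi16, the groups of these 4 genes overlapped. Overlap did not set them apart, since Wnt2, Cmah, Cd248 and Opcml, which passed with the block, overlapped too.

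**Figure D4:**
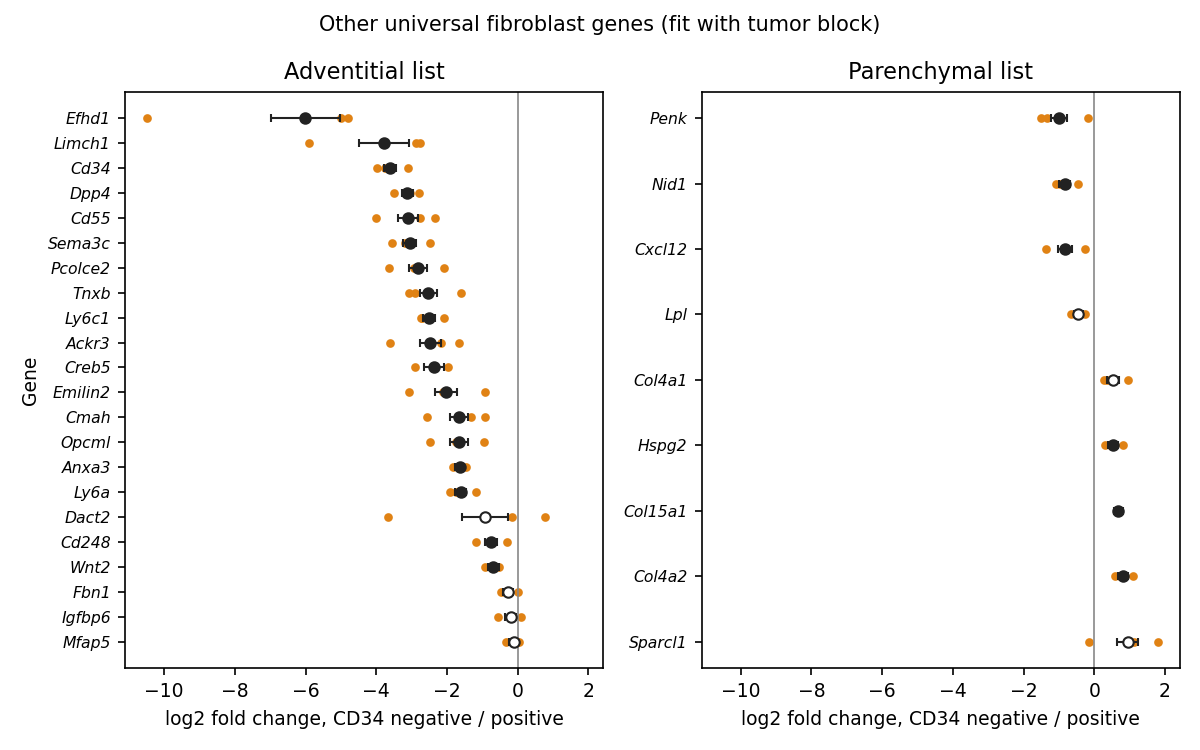
Log2 fold change of CD34- against CD34+ CAFs ± SE from the fit with the tumor block (black) and the ratio in each tumor (orange) for the adventitial and parenchymal lists. Filled black points passed at an adjusted p under 0.05. Of the adventitial list, 18 of 22 were lower, and the parenchymal list had 3 lower and 3 higher.

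The parenchymal list, which is headed by Col15a1, moved in both directions. Of 9 genes, 0 passed in limma-voom without the tumor term (3 at an unadjusted p under 0.05, 0 by edgeR, 1 by DESeq2). With the block 6 passed, 3 lower and 3 higher in CD34- CAFs, while edgeR with the block called 0. Penk, the precursor of enkephalins (99.3 ± 58.5 CPM in CD34- and 183 ± 48.7 CPM in CD34+ CAFs, SD, n = 3 each), the chemokine Cxcl12 (log2 fold change -0.82 ± 0.19) and the basement membrane protein Nid1 (-0.83 ± 0.15) were lower. Col15a1 (0.68 ± 0.12), Col4a2 (0.81 ± 0.14) and the heparan sulfate proteoglycan Hspg2 (0.54 ± 0.14) were higher. The share of all genes called with the block was 4.25% lower and 4.32% higher. Col15a1 was not called without tumor 2, and Hspg2 was not called without tumor 1 or tumor 2. Col4a1, Lpl and Sparcl1 did not pass, since limma-voom with the block gave them adjusted p-values of 0.0745, 0.0701 and 0.0822.

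Relatives of the 5 genes were examined in 4 protein families. The list held 20 genes, of which 12 were tested, 0 passed in limma-voom without the tumor term (6 at an unadjusted p under 0.05, 0 by edgeR, 3 by DESeq2), and 6 passed with the block, where 8.57% of all genes were called. In the spondin family, Spon1, which encodes the matrix protein F-spondin, moved opposite to Spon2. It was at 3238, 3126 and 2775 CPM in negative libraries 1, 2 and 3 and at 1385, 1303 and 534 CPM in positive libraries 1, 2 and 3. Every CD34- library was above every CD34+ library, as for 10.4% of all genes, with a log2 fold change of 1.63 ± 0.21 with the block (limma-voom, adjusted p = 0.00279). Without the block its adjusted p in limma-voom was 0.116.

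In the CAP superfamily of Pi16, relatives moved in both directions. Crispld2, a secreted CAP protein that binds lipopolysaccharide, was at 692, 601 and 752 CPM in negative libraries 1, 2 and 3 and at 283, 233 and 97.3 CPM in positive libraries 1, 2 and 3. The groups did not overlap, and its log2 fold change was 1.87 ± 0.28 (limma-voom with the block, adjusted p = 0.00467). Pi15, named like Pi16 as a peptidase inhibitor, was lower in CD34- CAFs (20.0, 8.17 and 10.9 CPM against 54.3, 25.4 and 40.4 CPM in libraries 1, 2 and 3). Its log2 fold change was -1.63 ± 0.19 (limma-voom with the block, adjusted p = 0.00179). Glipr2, which sits at the Golgi membrane, was also lower (-0.90 ± 0.15, adjusted p = 0.00853, limma-voom with the block). Crispld1 (-0.85 ± 0.25) and Glipr1 (0.64 ± 0.45) did not pass.

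Clec11a, a growth factor of the C-type lectin superfamily like tetranectin, had a higher mean CPM in CD34- CAFs. It was at 145, 220 and 155 CPM in negative libraries 1, 2 and 3 and at 102, 126 and 46.7 CPM in positive libraries 1, 2 and 3, with a log2 fold change of 1.01 ± 0.21 (limma-voom with the block, adjusted p = 0.0182). Neither edgeR with the block nor DESeq2 without it called Clec11a. Capg, a gelsolin relative that caps but does not sever actin filaments, was higher as well. It was at 191, 244 and 195 CPM in negative libraries 1, 2 and 3 and at 115, 166 and 119 CPM in positive libraries 1, 2 and 3 (log2 fold change 0.67 ± 0.12, limma-voom with the block, adjusted p = 0.0124), and edgeR with the block called it while DESeq2 without it did not. The gelsolin relatives Scin, Flii, Svil and Avil did not pass.

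**Figure D5:**
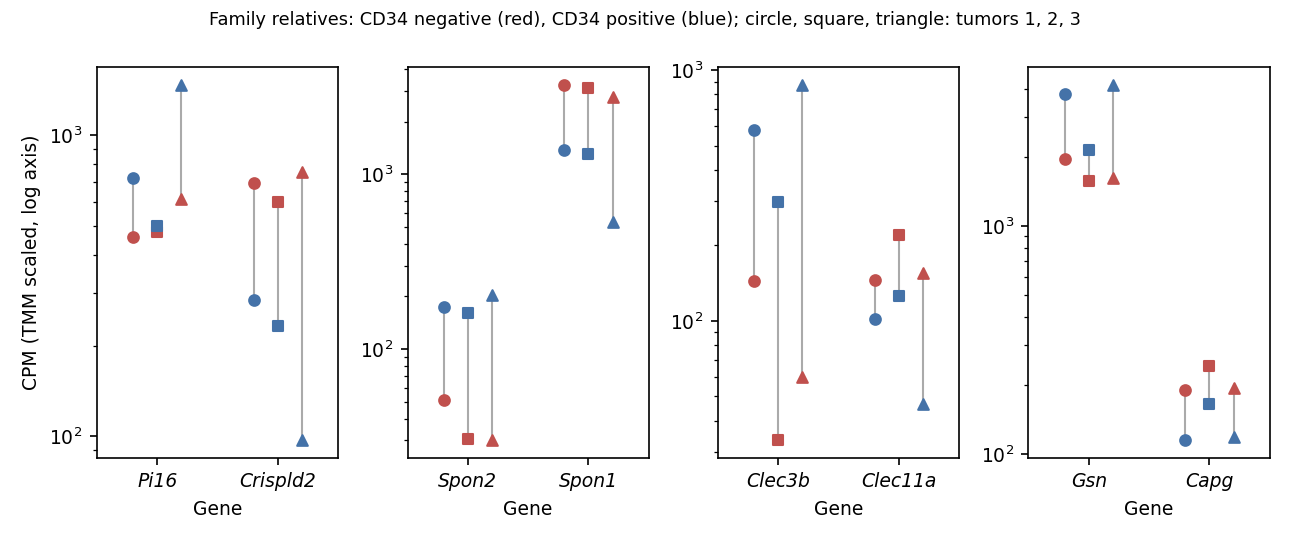
CPM of family relatives in each library on a log axis, with CD34- and CD34+ libraries numbered by tumor. Spon1 runs from 2775 to 3238 CPM in CD34- and from 534 to 1385 CPM in CD34+ CAFs, the reverse of Spon2.

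The partners of gelsolin on actin did not pass. Of 10 genes for actins, profilin, cofilins, destrin, capping protein subunits and thymosin, 9 were tested, and 0 passed in limma-voom without or with the block (2 at an unadjusted p under 0.05 in each fit, 0 by edgeR and DESeq2). Their median log2 fold change was -0.08. Actb was at 673 ± 144 CPM in CD34- and 702 ± 162 CPM in CD34+ CAFs, and Capza1, a subunit of the protein that caps the fast-growing filament end, at 86.2 ± 12.2 and 85.5 ± 5.61 CPM (SD, n = 3 each). The actin-severing cofilin gene Cfl2 was at 30.9 ± 1.93 CPM in CD34- and 43.9 ± 1.73 CPM in CD34+ CAFs (limma-voom with the block, adjusted p = 0.0897).

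Of 12 matrix and protease partners of dermatopontin, tetranectin, mindin and Pi16, 10 were tested, and 0 passed in limma-voom without the tumor term (3 at an unadjusted p under 0.05, 0 by edgeR, 1 by DESeq2). With the block 3 were lower and 1 was higher, against 4.25% lower and 4.32% higher of all genes. Dcn, the gene of decorin, the proteoglycan that dermatopontin binds, had a log2 fold change of -1.12 ± 0.13 (limma-voom with the block, adjusted p = 0.00154). It was at 4142, 1731 and 2895 CPM in negative libraries 1, 2 and 3 and at 8533, 3565 and 6996 CPM in positive libraries 1, 2 and 3, lower in CD34- CAFs in each tumor though the groups overlapped. Fn1, the gene of fibronectin, to which dermatopontin also binds, had -0.80 ± 0.17 (limma-voom with the block, adjusted p = 0.0182) and was not called without tumor 2 or by edgeR with the block. Rarres2, the gene of chemerin, had -1.24 ± 0.17 (limma-voom with the block, adjusted p = 0.00309). The groups of Fn1 and of Rarres2 overlapped as well, and DESeq2 without the block did not call Dcn, Fn1 or Rarres2.

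Tgfb1, the gene of a growth factor whose activity dermatopontin can modify, was higher in CD34- CAFs. It was at 70.0, 102 and 96.4 CPM in negative libraries 1, 2 and 3 and at 24.5, 44.4 and 27.4 CPM in positive libraries 1, 2 and 3. Its log2 fold change was 1.45 ± 0.17 (limma-voom with the block, adjusted p = 0.00167). Of the collagen I genes on which dermatopontin acts, Col1a1 (0.45 ± 0.18) and Col1a2 (0.35 ± 0.17) did not pass with the block. The plasminogen activators Plat (-0.19 ± 0.14) and Plau (0.01 ± 0.16) did not pass either, and plasminogen itself (Plg), which tetranectin binds, was at or under 0.160 CPM in both group means.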

How the data were processed

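RNA of the 6 sorted libraries was prepared with a column kit including DNase and a TruSeq kit that does not mark strand, and sequenced on a NextSeq 500. The deposited counts are whole reads per NCBI gene, which the authors made by alignment to GRCm38/mm10 with Rsubread and its featureCounts step. The handling of strand and of reads with several alignments was not given in the sources used here. From these counts limma-voom (limma 3.58.1, edgeR 4.0.16, R 4.3.3) was run on all genes passing filterByExpr (minimum count 10) with TMM scaling, two-sided, with Benjamini-Hochberg adjustment at 0.05. Genes without a symbol were kept (1310 in the table, of which 292 were tested). Fits were made without a tumor term, since the study's methods name none, and with the tumor as a block; the authors' design was not given in the sources used here. Both libraries of a number came from the same tumor, and their deviations from the group means correlated at 0.37, 0.35 and 0.22 in tumors 1, 2 and 3. CPM values use TMM-scaled library sizes, marker sums use total counts, and RPKM uses the length the table gives. The fits were also run on simulated counts with planted changes larger than those of Pi16, Gsn and the parenchymal list. That run does not show how well changes as small as these are found.

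The 5 genes and the gene lists were chosen with earlier results of these data known. All genes of lists of up to 12 were nameable. From the adventitial list, those named by rule were the 5 with the largest change in the fit without the block among genes passing with it; no list gene was opposite to the list's median. The other adventitial genes, named as members of small counts, were chosen after their values were seen. The 3 genes most correlated with each of the 5 were named, except 1 that is not reported here. Separate animals per tumor are not stated beyond the tumor number, so p-values speak for these tumors only. With the block they measure the spread of the within-tumor ratios over the tumors. Without it they measure the spread between the libraries of a group. Counting error is small at these depths for the 5 genes, since 3 counts stand for 0.0346 to 0.185 CPM, but not for Efhd1 in negative library 3. Alternatives were edgeR's quasi-likelihood test, DESeq2 1.42.0, RLE size factors, no low-count filter, sample quality weights, library sizes without the 10 most abundant genes, and each library or tumor left out. Leaving a tumor out under the block and using only genes with a symbol were added after seeing the data. Promoter sequences are from RefSeq; Spon2 and Clec3b had no entry. Coordinates are RefSeq GRCm38.p6.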

Additional observations from a re-analysis of the deposited data

How the results depend on the processing

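The log2 fold changes of Pi16, Dpt, Spon2, Clec3b and Gsn were negative under all 21 alternatives, including edgeR, DESeq2, RLE scaling, no filter and each left-out library or tumor. With single libraries or tumors left out they ran from -0.99 to -0.25 for Pi16, from -2.74 to -2.23 for Dpt, from -2.58 to -2.09 for Spon2, from -3.63 to -2.56 for Clec3b and from -1.21 to -0.71 for Gsn. Dpt was at -2.76 with sample quality weights, a move larger than the 0.10 SD of its ratios in the tumors.

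The tumor block, for which the pairing comes from the shared tumor, raised the number of genes called from 18 to 1273. It gave 18 of the adventitial list (4 without it), 6 of the parenchymal list, 6 family relatives and 4 matrix and protease partners (0 each without it), and 4 of the 5 universal genes. With edgeR and the block these counts were 575, 17, 0, 5, 3 and 3. With edgeR and no block 9 genes, 1 adventitial gene and 1 of the 5 (Spon2) were called. With DESeq2 they were 698, 15, 1, 3, 1 and 4. Quality weights gave 161 genes, 9 adventitial genes and 1 matrix partner. Leaving out libraries or tumors, with or without the block, gave 0 to 2019 genes (0 to 86 without the block; 1134, 851 and 2019 with it for tumors 1, 2 and 3 left out), 0 to 18 adventitial (11 without tumor 1 and no block), 0 to 8 parenchymal, 0 to 7 family, 0 to 4 matrix genes and 0 to 5 of the 5. The 0 genes called by limma-voom arose when positive library 2, negative library 3, tumor 2 or tumor 3 was dropped, with 1555, 2217, 1123 and 1641 genes at an unadjusted p under 0.05. The cause of these moves was not tested. The actin list had 0 calls under each setting. RLE scaling, no filter, library sizes without the 10 most abundant genes and symbols only gave 22, 26, 19 and 17 genes. Levels taken as CPM instead of RPKM placed Pi16 above Clec3b in each CD34+ library.

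The Pi16 log2 ratios had an SD of 0.60 over the 3 tumors, about as large as the Pi16 difference itself, and gene counts separate neither isoforms nor cell fractions.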
